A study of Mus musculus with 48 samples.

Results

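The genes described here are 10 that store, import, carry or export iron, or that regulate these steps, among 47561 genes listed for mouse lung. They were chosen by symbol, and all 10 were measured and tested in every comparison. Ftl1 and Fth1 encode the light and heavy chains of ferritin, the iron storage protein, and Ncoa4 encodes the receptor that carries ferritin to lysosomes for breakdown. Slc40a1 encodes ferroportin, the iron exporter, and Trf encodes transferrin, the iron carrier of plasma. Tfrc encodes the transferrin receptor. Slc11a1 and Slc11a2 encode the metal transporters NRAMP1 and DMT1. Aco1 and Ireb2 encode the iron regulatory proteins IRP1 and IRP2. RNA was sequenced from the lungs of 48 adult mice, in 16 groups of 3, with 1 library per mouse. C3H/HeN and C57Bl/6 mice, which are inbred strains, gave the male and female groups C3HM, C3HF, C57BM and C57BF. Mice of each of these received saline or a single intraperitoneal injection of aurothioglucose (ATG) at 25 mg/kg, and then breathed room air or more than 95% oxygen (hyperoxia) for 96 h. ATG is a gold compound that inhibits thioredoxin reductase. The saline groups rest on the sample labels, since the series' own design text has every mouse receive ATG. The substrain of C57Bl/6 is not named in the labels, and the other sources disagree on it. Levels are FPKM, the fragments counted for a gene divided by its length and by the library's mapped total, so they can be set side by side between genes.

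Iron is taken up by most cells through transferrin and its receptor, or by other transporters, and what is not used is stored in ferritin or exported through ferroportin. When iron is scarce in a cell, IRP1 and IRP2 bind hairpins in messenger RNA called iron-responsive elements. Binding near the start of a message blocks its translation, as for ferritin and ferroportin, and binding after the coding region protects the message from decay, as for the transferrin receptor. The amount of ferritin protein is thus set largely at translation, which RNA sequencing does not measure. In the lung, macrophages take up iron from inhaled matter and old red cells, and free iron can turn oxygen products into more reactive ones.

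The hairpins that mark 3 kinds of member (storage, export and import) are shown to place the RNA levels beside the elements that act on translation or decay. They were found in the untranslated regions of GENCODE M21 transcripts (GRCm38, the same assembly as mm10) on the transcript's strand as a C, 5 bases, the 6-base loop CAGTGN and 5 bases that pair with the 5 before the loop. Capitals mark the loop, and each sequence is given as DNA.
Fth1, 5′ UTR, chr19:9982733-9982759, plus strand: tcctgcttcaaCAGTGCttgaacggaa
Ftl1, 5′ UTR, chr7:45459780-45459806, minus strand: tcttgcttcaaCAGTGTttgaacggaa
Slc40a1, 5′ UTR, chr1:45925466-45925492, minus strand: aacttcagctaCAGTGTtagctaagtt
Tfrc, 3′ UTR, chr16:32631220-32631246, plus strand: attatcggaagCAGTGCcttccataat
Tfrc, 3′ UTR, chr16:32631599-32631625, plus strand: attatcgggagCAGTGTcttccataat
Tfrc, 3′ UTR, chr16:32631664-32631690, plus strand: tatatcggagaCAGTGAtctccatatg
Tfrc, 3′ UTR, chr16:32631711-32631737, plus strand: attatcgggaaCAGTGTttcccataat
These 4 members held 7 matches, 4 of them in Tfrc. Of 21179 protein coding genes with an annotated untranslated region, 160 (0.755%) held a match. For the other 6 members this says only that the letters were not found in the annotated regions. The letters TGACNNNGC, the core of the antioxidant response element, were searched on both strands from 250 bases before to 50 bases after the start in RefSeq promoters of mouse. Promoters were listed for 7 members, 11 promoters in all, and 1 of the 11, of Ncoa4, held them, against 12.4% of 32851 promoters of all genes. None was listed for Slc40a1, Slc11a2 or Trf. For the other listed members this says only that the letters were not found in this window. Sequence outside it was not searched.

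Summed FPKM per lung lay between 510933 and 748290. Every lung was nearest in expression to another lung of its own strain and to one of its own air, for 48 of 48 lungs, and no pair of lungs was identical. Depth in reads is unknown. No member lies on chromosome X, Y or M, whose genes were at 0 throughout. Of the C3HM given saline in room air, mice 1 and 3 stood apart from mouse 2 in the levels of several members. The correlations of mouse 1 with mice 2 and 3 were 0.933 and 0.958, and that of mice 2 and 3 was 0.952, against 0.941 to 0.979 in 45 pairs of mice from the other groups. Only 0.933 lay below that range. Depth relative to the median lung, estimated from low FPKM values, was 0.769, 1.02 and 0.818 in mice 1, 2 and 3, and 0.769 to 1.24 over all lungs. The club cell transcript Scgb1a1 took 30.2%, 16.5% and 10.4% of their summed FPKM. In mice 1, 2 and 3, Ncoa4 stood at 1.29, 5.06 and 2.70 FPKM, Slc11a1 at 1.61, 9.93 and 1.52, Slc11a2 at 4.77, 13.5 and 4.42, and Aco1 at 8.54, 16.4 and 9.42. Values of the members that moved by over 1.5 times or changed their call without mice 1 and 3, a choice made after seeing the data, are given both ways below. Those fits leave mouse 2 as the only C3HM lung given saline in room air, so their values and calls lean on that lung. Mouse 2 was itself the highest of the 6 C3H saline room air lungs for Slc11a1 and for Slc40a1, which stood at 7.04 FPKM in it.

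Over all 48 lungs, the ferritin chains were the most abundant of the 10 transcripts, with median levels of 4431 FPKM for Fth1 and 2903 FPKM for Ftl1. Trf followed at 250 FPKM. The others lay far lower, at 24.1 FPKM for Tfrc, 19.7 for Aco1, 14.0 for Slc11a2, 12.9 for Ireb2, 8.06 for Slc11a1, 6.50 for Ncoa4 and 5.93 for Slc40a1. The ranges over the 48 lungs of neighbours in this order overlapped, except those of Ftl1 and Trf and of Trf and Tfrc.

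Hyperoxia was compared with room air in the 24 mice given saline, with strain and sex in the fit. Both ferritin chains, Ncoa4, Slc11a1, Aco1 and Slc40a1 rose and Trf fell, whereas Tfrc, Ireb2 and Slc11a2 did not pass the threshold of an adjusted p of 0.05 in limma. Thus 7 of the 10 members changed, while 60.1% of all 16321 genes tested passed in this comparison. The median log2 difference of the members was 0.56, and that of all genes tested was 0.01. With C3HM mice 1 and 3 left out, 9 members passed, 6 up and 3 down, against 58.2% of all genes. In the fit of all 24 mice the share of members that passed is near that of all genes. It is higher without mice 1 and 3, a fit in which mouse 2 is the only C3HM room air lung. What follows concerns the size and the pattern of the changes.

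Ftl1, on the minus strand of chromosome 7 (45457944 to 45459884), had the smallest standard error of any member in this fit. Its lowest, median and highest levels in the 6 C3H lungs given saline were 1715, 1884 and 2048 FPKM in room air, and 3661, 4004 and 4175 FPKM in hyperoxia. In the 6 C57B lungs they were 1277, 1462 and 1646 FPKM in room air, and 3212, 3570 and 3722 FPKM in hyperoxia. All hyperoxia lungs lay above all room air lungs, and this also held when the ATG mice were included, 24 lungs against 24. The share of all genes whose groups separate without overlap, here and for the members below, was not counted. The log2 difference was 1.17 ± 0.053 (SE, n = 12 per air, 95% interval 1.06 to 1.28, limma adjusted p = 6.00e-13), with 1.08 in C3H and 1.26 in C57B.

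Fth1, on the plus strand of chromosome 19 (9980598 to 9985098), rose by a similar amount but with wide spread in 1 group. The C3H lungs lay at 2362, 3312 and 3611 FPKM in room air, and at 5138, 5326 and 5690 FPKM in hyperoxia. The C57B lungs lay at 2226, 2791 and 3339 FPKM in room air, and at 4858, 7659 and 9430 FPKM in hyperoxia. As for Ftl1, none of the 24 hyperoxia lungs overlapped the 24 room air lungs. On the log2 scale the difference was 1.06 ± 0.094 (95% interval 0.86 to 1.25, limma adjusted p = 8.82e-09), with 0.76 in C3H and 1.36 in C57B. Under quantile normalization it was 1.96 over both strains. Ftl1 and Fth1 together made up 0.533% to 0.948% of the summed FPKM in the saline room air lungs, and 1.62% to 2.39% in hyperoxia.

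**Figure D1:**
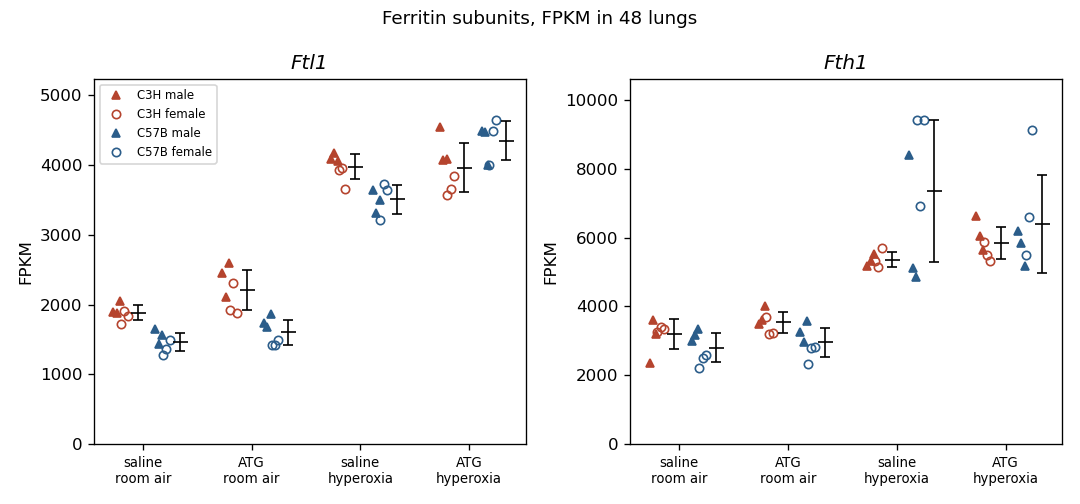
Levels of Ftl1 and Fth1 (FPKM, vertical axis) in each of the 48 lungs, by injection and air (horizontal axis), with colour for strain, filled triangles for males and open circles for females. Black dashes and bars are the mean ± SD of 6 lungs. Every hyperoxia lung lies above every room air lung for both chains, and the C57B saline hyperoxia lungs spread from 4858 to 9430 FPKM for Fth1.

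In the 6 C57B lungs given saline and hyperoxia, Fth1 and the neutrophil markers were high in the same lungs. Fth1 was 8409, 5111 and 4858 FPKM in the 3 male lungs, where the summed FPKM of 10 neutrophil markers was 5009, 293 and 170. In the 3 female lungs Fth1 was 9430, 6909 and 9421 FPKM and the marker sum was 4098, 2215 and 4237. The C3HF lung with the highest neutrophil sum, 6397 FPKM, had 5690 FPKM of Fth1, the highest of its group of 6. That level was below the 6909 FPKM of the C57B lung with a sum of 2215. In the 6 C57B lungs given ATG and hyperoxia, Fth1 ran from 5177 to 9130 FPKM and the neutrophil sum from 243 to 1116. The part of these cells in the level of Fth1 was not tested. In bulk lung RNA, fewer cells of a type and less RNA per cell cannot be told apart.

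The ratio of Fth1 to Ftl1 in C3H was 1.71 ± 0.26 (SD, n = 6) in room air and 1.35 ± 0.11 in hyperoxia, a difference that missed the threshold after adjustment for 2 tests (exact permutation test of the log ratio, two-sided, p = 0.0260, adjusted p = 0.0519). The lowest room air ratios, 1.25 and 1.57, were those of C3HM mice 1 and 3. Without them the 4 room air lungs, at 1.79 to 1.93, lay above the 6 hyperoxia lungs, at 1.27 to 1.55. The lungs left out, a choice made after seeing the data, held the lowest ratios, so a test of the rest cannot decide whether the ratio fell. The 6 C3H lungs given ATG in room air ran from 1.38 to 1.92. In C57B given saline the ratio was 1.91 ± 0.20 in room air and 2.10 ± 0.61 in hyperoxia (exact permutation p = 0.623). The heavy chain is the one that oxidizes iron as it enters ferritin.

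Part of the sequence of Ftl1 is shared with Gm10116, a retrogene copy on chromosome 13 that holds 54.9% of the 30-base sequences of Ftl1, so reads could have been divided between them. Gm10116 was listed at 332 to 465 FPKM in C3H and 182 to 269 FPKM in C57B in saline room air, and it rose in hyperoxia by a log2 difference of 1.08 (limma adjusted p = 9.27e-12). When both were summed, the log2 difference was 1.16, against 1.17 for Ftl1 alone. Fth1 shared 3.41% of such sequences with other genes.

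Ncoa4, the ferritin receptor of lysosomal breakdown (chromosome 14, 32159865 to 32179855, plus strand), was low. Its lowest, median and highest levels in C3H were 1.29, 4.76 and 6.38 FPKM in room air, and 5.39, 7.61 and 10.1 FPKM in hyperoxia. In C57B they were 2.79, 5.33 and 6.18 FPKM in room air, and 4.29, 7.41 and 9.27 FPKM in hyperoxia. The groups overlapped in both strains. The log2 difference was 0.63 ± 0.15 (limma adjusted p = 0.00113). It was 0.81 in C3H (limma adjusted p = 0.00505), which without C3HM mice 1 and 3 became 0.46 (limma adjusted p = 0.130). The value of 0.45 in C57B did not pass (limma adjusted p = 0.0743), but it passed without those mice (limma adjusted p = 0.0327), and at 0.62 when summed with the related gene Gm6768 (limma adjusted p = 0.0279). Of its 30-base sequences, 18.9% were shared with other genes.

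Export and transport differed between the strains. Slc40a1, the exporter (chromosome 1, 45908068 to 45926523, minus strand), rose in hyperoxia in C3H. In C57B its mean difference over the sexes was near 0, with the level lower in hyperoxia in males and higher in females. Trf, the plasma carrier (chromosome 9, 103204001 to 103230444, minus strand), fell in both strains and fell further in C57B. In each strain taken alone, 7 members passed in C3H, 6 up and 1 down, against 37.8% of all genes tested. In C57B 6 passed, 3 up and 3 down, against 55.5% of all genes tested. Without C3HM mice 1 and 3, a fit with 1 C3HM room air lung, Ncoa4, Slc11a1, Aco1 and Trf no longer passed in C3H. No C57B value moved, since no C57B lung was left out. The calls of Ncoa4 and Slc11a1 in C57B changed only through the spread pooled over the groups and the adjustment. The difference between the strains was itself tested as an interaction, which 11.5% of all genes and 3 of the 10 members passed. Its median log2 value, C3H minus C57B, was 0.15 for all genes and 0.39 for the members, and that of all genes was 0.00 after scaling by median ratios. Without mice 1 and 3 the same 3 members passed, against 8.38% of all genes, and the medians were 0.07 and 0.01.

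Slc40a1 stood at 4.67, 4.98 and 7.04 FPKM (lowest, median and highest) in the C3H lungs in room air, and at 9.98, 12.4 and 16.1 FPKM in hyperoxia. In C57B these were 3.15, 4.82 and 7.43 FPKM in room air, and 3.31, 4.26 and 7.45 FPKM in hyperoxia. The C3H hyperoxia lungs were thus above all the other saline lungs, and with the ATG mice included, the 12 C3H lungs in hyperoxia lay above the 12 C57B lungs in hyperoxia. The log2 difference between hyperoxia and room air was 1.10 ± 0.13 in C3H (95% interval 0.83 to 1.38, limma adjusted p = 2.47e-06). It was -0.05 ± 0.13 in C57B, with an interval of -0.32 to 0.22. The strains differed in this by 1.15 ± 0.19 (limma adjusted p = 0.000719), and by 0.98 after median ratio scaling. Without C3HM mice 1 and 3 the difference was 1.00 (limma adjusted p = 0.00624). Over both strains the log2 difference was 0.53 ± 0.093 (limma adjusted p = 6.24e-05), a mean of unlike values.

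Within C57B the values of males and females lay on opposite sides. Slc40a1 in C57BM was 5.83, 7.43 and 7.38 FPKM in room air, and 3.97, 4.19 and 3.31 FPKM in hyperoxia. In C57BF it was 3.15, 3.71 and 3.81 FPKM in room air, and 7.45, 4.33 and 6.37 FPKM in hyperoxia. The log2 differences were -0.71 and 0.61, and those of C3HM and C3HF were 1.09 and 1.12. The difference between the sexes over both strains was -0.67 ± 0.19, which did not pass (95% interval -1.06 to -0.28, limma adjusted p = 0.145). It averages C57B with C3H, and the difference between the sexes within C57B alone was not tested.

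Trf stood at 228, 268 and 363 FPKM in the C3H lungs in room air, and at 168, 225 and 251 FPKM in hyperoxia, with overlap. The C57B values were 293, 325 and 385 FPKM in room air, and 117, 129 and 155 FPKM in hyperoxia, so that every hyperoxia lung was below every room air lung. Over both strains Trf changed by -0.83 ± 0.083 on the log2 scale (limma adjusted p = 4.77e-08). On the log2 scale the difference was -0.34 ± 0.12 in C3H (limma adjusted p = 0.0276) and -1.32 ± 0.12 in C57B (limma adjusted p = 1.54e-08). The strains differed in this by 0.98 ± 0.17 (limma adjusted p = 0.00106), and by 0.79 after median ratio scaling. Without C3HM mice 1 and 3 this was 0.92 (limma adjusted p = 0.00713), whereas the fall within C3H no longer passed, at -0.40 (limma adjusted p = 0.0514). Trf shared 60.7% of its 30-base sequences with Gm20425, a gene that overlaps it and was listed at 0 to 9.68 FPKM. With both summed, the calls of Trf named here were kept.

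**Figure D2:**
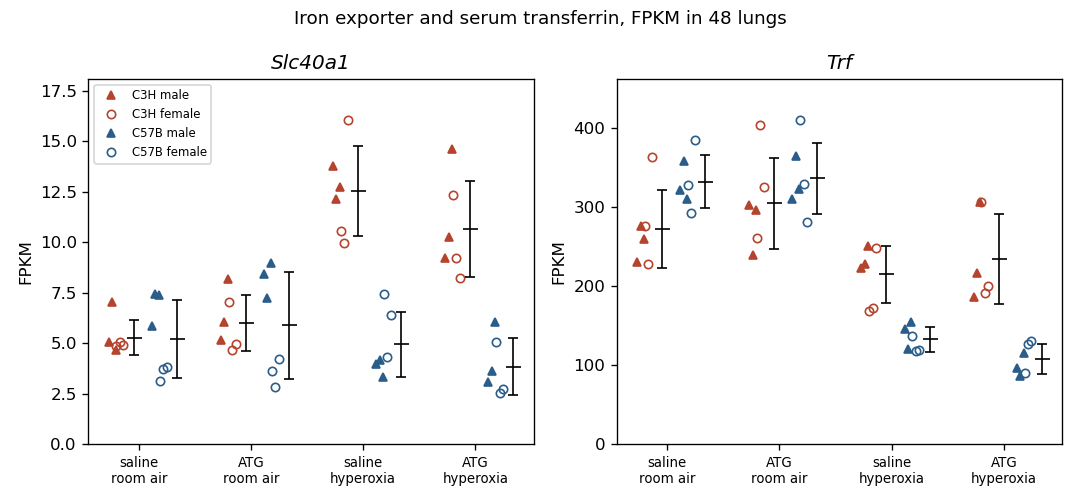
Levels of Slc40a1 and Trf (FPKM, vertical axis) in each of the 48 lungs, by injection and air (horizontal axis), with colour for strain, filled triangles for males and open circles for females. Black dashes and bars are the mean ± SD of 6 lungs. In hyperoxia, with either injection, the C3H lungs lie above the C57B lungs for both transcripts.

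Within the saline hyperoxia lungs, Slc40a1 was higher in C3H than C57B by a log2 difference of 1.21 ± 0.13 (limma adjusted p = 9.18e-07) and Trf by 0.68 ± 0.12 (limma adjusted p = 0.000226). Fth1 was lower in C3H than C57B by -0.41 ± 0.13 (limma adjusted p = 0.0271). These 3 members passed, against 27.2% of all genes tested. The strain difference in the rise of Fth1 was -0.60 ± 0.19 (limma adjusted p = 0.0427). It lost the threshold in 18 of 24 fits that each left out 1 lung, and it passed without C3HM mice 1 and 3 (-0.73, limma adjusted p = 0.0279). For Ftl1 the strains differed in the rise by -0.18 (95% interval -0.40 to 0.04, limma adjusted p = 0.273).

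Cell type markers moved with strain in the same lungs. The summed FPKM of 10 neutrophil markers ran from 186 to 6397 with a median of 213 in C3H saline hyperoxia, and from 170 to 5009 with a median of 3156 in C57B. The sum of 10 alveolar macrophage markers ran from 381 to 970 in C3H and from 827 to 1916 in C57B. The sum of 10 genes of monocytes and recruited macrophages ran from 267 to 1067 with a median of 391 in C3H, and from 181 to 585 with a median of 324 in C57B. Macrophages are known to express Slc40a1. The part of these cells in the levels of Trf, Fth1 and Slc40a1 was not tested.

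**Figure D3:**
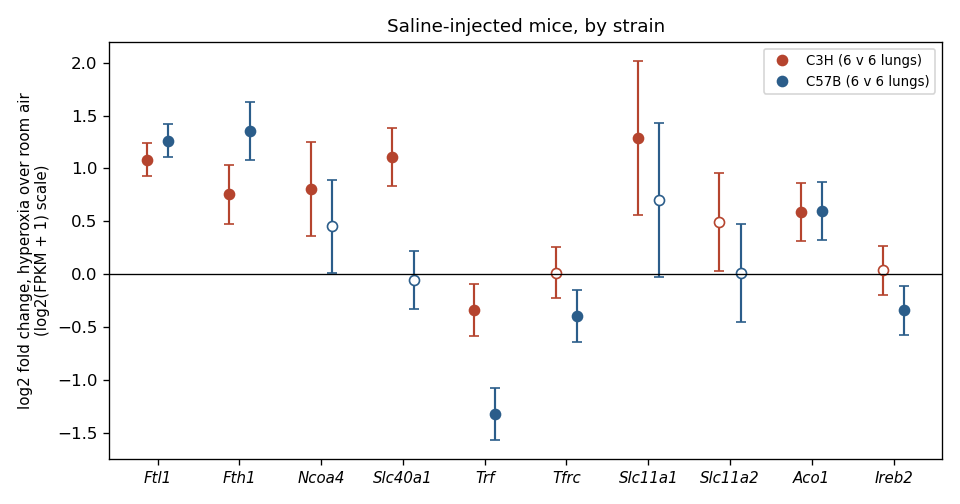
Log2 difference between hyperoxia and room air in saline mice (axis in log2 units) for the 10 members, with 95% intervals, in C3H and in C57B (n = 6 lungs per air and strain). Filled points have an adjusted p under 0.05 in limma and open points do not. Slc40a1 lies at 1.10 in C3H and -0.05 in C57B, and Trf at -0.34 and -1.32.

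Among the importers, Slc11a1 rose, and the other importers did not pass over both strains. Slc11a1, the NRAMP1 transporter of phagocyte membranes (chromosome 1, 74375195 to 74386062, plus strand), stood at 1.52, 3.14 and 9.93 FPKM in the C3H lungs in room air, and at 4.91, 9.47 and 31.0 FPKM in hyperoxia. Among C57B lungs the level was 5.28, 6.38 and 11.5 FPKM in room air, and 5.23, 12.3 and 25.7 FPKM in hyperoxia. The groups overlapped in both strains. The log2 difference was 1.00 ± 0.25 (limma adjusted p = 0.00164), and without C3HM mice 1 and 3 it was 0.65 (limma adjusted p = 0.0200). It was 1.29 in C3H (limma adjusted p = 0.00644), which without those mice became 0.59. That value rests on mouse 2 as the only C3HM room air lung, at 9.93 FPKM, where the next C3H room air lung stood at 5.14. The value of 0.70 in C57B did not pass (limma adjusted p = 0.0934). Without C3HM mice 1 and 3 it stayed 0.70, since neither of them is C57B. Its call changed there only through the spread pooled over the groups and the adjustment. The lung with the highest level, 31.0 FPKM, was the C3HF lung with the highest neutrophil sum.

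Tfrc, the transferrin receptor (chromosome 16, 32608920 to 32632794, plus strand), stood at 14.1, 18.1 and 29.4 FPKM in the C3H lungs in room air, and at 15.9, 19.4 and 28.9 FPKM in hyperoxia. C57B lungs stood at 23.1, 24.4 and 25.9 FPKM in room air, and 15.8, 18.3 and 24.0 FPKM in hyperoxia. The log2 difference over both strains was -0.19 ± 0.082 (95% interval -0.36 to -0.02, limma adjusted p = 0.0545), and without C3HM mice 1 and 3 it was -0.23 (limma adjusted p = 0.0397). In C57B the difference was -0.40 ± 0.12 (limma adjusted p = 0.00714) and in C3H 0.02 ± 0.12, or -0.06 without those mice. The difference between the strains did not pass, at 0.41 (95% interval 0.07 to 0.76, limma adjusted p = 0.107). In C3HM Tfrc was 16.1, 18.0 and 14.1 FPKM in room air and 24.9, 21.4 and 28.9 FPKM in hyperoxia, and in C3HF 29.0, 18.3 and 29.4 FPKM in room air and 17.4, 15.9 and 16.2 FPKM in hyperoxia. The values of C3H males and females thus lay on opposite sides, but the difference between the sexes over both strains did not pass (0.65, 95% interval 0.30 to 0.99, limma adjusted p = 0.130). The difference between the sexes within C3H alone was not tested.

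Slc11a2, the DMT1 transporter (chromosome 15, 100387898 to 100425072, minus strand), lay between 4.42 and 19.2 FPKM in the 12 saline room air lungs and between 9.91 and 20.4 FPKM in hyperoxia. Its log2 difference was 0.25 ± 0.16 (95% interval -0.07 to 0.58, limma adjusted p = 0.170). Its lowest values were those of C3HM mice 1 and 3, and without them the difference was 0.03 (95% interval -0.27 to 0.32, limma adjusted p = 0.886).

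Of the iron regulatory proteins, Aco1 rose and Ireb2 did not pass over both strains. Aco1, which encodes IRP1 and in its other form a cytosolic aconitase (chromosome 4, 40143081 to 40198338, plus strand), stood at 8.54, 16.0 and 20.0 FPKM in the C3H lungs in room air, and at 16.6, 22.2 and 26.8 FPKM in hyperoxia. Among C57B lungs the level was 13.0, 15.3 and 18.1 FPKM in room air, and 22.5, 23.3 and 27.3 FPKM in hyperoxia, without overlap. On the log2 scale the difference was 0.59 ± 0.092 (limma adjusted p = 1.34e-05), with 0.59 in C3H and 0.60 in C57B. The strain difference was -0.01 with a 95% interval of -0.39 to 0.37. Without C3HM mice 1 and 3 it was -0.28 with an interval of -0.60 to 0.05 (limma adjusted p = 0.283), and the value in C3H was 0.32 and did not pass (limma adjusted p = 0.0567).

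Ireb2, which encodes IRP2 (chromosome 9, 54863789 to 54912530, plus strand), lay between 9.69 and 15.8 FPKM in the 12 saline room air lungs and between 9.11 and 15.1 FPKM in hyperoxia. Its log2 difference was -0.15 ± 0.078 (95% interval -0.31 to 0.01, limma adjusted p = 0.106), and without C3HM mice 1 and 3 it was -0.22 (limma adjusted p = 0.0232). In C57B alone it was -0.34 ± 0.11 (limma adjusted p = 0.0137) and in C3H 0.04 ± 0.11. The difference between the strains did not pass (0.38, 95% interval 0.05 to 0.70, limma adjusted p = 0.119). With C3HM mice 1 and 3 left out it was 0.23, and the value in C3H was -0.11.

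Over all saline lungs, hyperoxia moved markers of many cell types beside the members. The summed FPKM of 8 listed erythroid genes, 7 of them above 0, ran from 3342 to 67964 in room air and from 305 to 2004 in hyperoxia, and all 6 that could be tested fell, with Alas2, an X-linked defining gene, listed at 0. The neutrophil sum ran from 141 to 803 in room air and from 170 to 6397 in hyperoxia, and 8 of the 10 markers rose. The alveolar macrophage sum ran from 214 to 681 and from 381 to 1916, with 8 of 10 markers up and 2 down. The sum of 10 genes of monocytes and recruited macrophages ran from 106 to 242 and from 181 to 1067, with 7 up and 1 down. The sum of 8 type 2 cell genes ran from 26358 to 50514 and from 6177 to 22531, with 7 down and 1 up. Markers of every lung cell type looked for were above 0, and their part in the changes of the members was not tested. Scgb1a1, a club cell transcript, took 10.4% to 30.2% of the summed FPKM in room air and 1.20% to 6.46% in hyperoxia, and the part of this share in the members' levels was not tested beyond the scaling alternatives.

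Without exposure to oxygen, 1 member differed between the strains and none between the sexes past the threshold. In the 12 saline room air mice, Ftl1 was the only member that differed between the strains, against 11.8% of all 15546 genes tested. It was higher in C3H than C57B by a log2 difference of 0.36 ± 0.082 (95% interval 0.19 to 0.54, limma adjusted p = 0.0126), and none of the 6 C3H lungs overlapped the 6 C57B lungs. Summed with Gm10116 the difference was 0.43 (limma adjusted p = 0.00439), and Gm10116 alone differed by 0.83 (limma adjusted p = 8.07e-05). The members' median log2 difference was -0.22 and that of all genes -0.10, and without C3HM mice 1 and 3 the members' median was 0.11. Without C3HM mice 1 and 3, Ftl1 still passed (0.34, limma adjusted p = 0.0312) and Fth1 also passed (0.32, limma adjusted p = 0.0342). The strain difference of Slc40a1 in room air was 0.06 with a 95% interval of -0.20 to 0.32, or 0.21 (-0.05 to 0.47) without those mice, and that of Trf was -0.30 with an interval of -0.56 to -0.04 (limma adjusted p = 0.136).

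Between the sexes 0 members passed in limma, against 0.669% of all genes tested. At an unadjusted p under 0.05 there were 3 members and 3617 of 15546 genes. Slc40a1 was nearest, at 4.67, 6.44 and 7.43 FPKM (lowest, median and highest) in 6 males and 3.15, 4.35 and 5.07 FPKM in 6 females, a log2 difference, male minus female, of 0.46 ± 0.12 (limma adjusted p = 0.0905). The interaction of strain and sex gave 0 members in limma, with 5 at an unadjusted p under 0.05, and likewise 0% of all genes, with 2538 of 15546 at an unadjusted p under 0.05. The difference between the sexes in the response to hyperoxia gave 0 members in limma, against 0.0368% of all genes. At an unadjusted p under 0.05 it gave 4 members and 2964 of 16321 genes. C3HM mouse 2 decided the counts of members that passed. Without it, 3 members passed for sex, 5 for the interaction of strain and sex, and 4 for the sex difference in the response to hyperoxia, and 4 for strain in room air. Leaving out a mouse also moved the counts over all genes widely in these comparisons, as given below. These member counts therefore do not set the members apart from other genes.

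ATG was compared with saline in room air and in hyperoxia, each in 24 mice. In room air 0 members passed in limma, and 0.0185% of all genes passed. At an unadjusted p under 0.05 there were 1 member, Ftl1, and 1077 of 16228 genes. The log2 difference of Ftl1 was 0.18 with a 95% interval of 0.07 to 0.29 (limma adjusted p = 0.521). In hyperoxia, 2 members, Tfrc and Slc11a1, were higher with ATG than with saline, against 5.47% of all genes tested. This comparison shares the saline hyperoxia lungs with the comparison of hyperoxia and room air. The members' median log2 difference was 0.09 and that of all genes 0.05.

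Tfrc in hyperoxia stood at 15.9, 19.4 and 28.9 FPKM with saline and at 26.5, 33.4 and 34.5 FPKM with ATG in C3H. In C57B it was 15.8, 18.3 and 24.0 FPKM with saline and 21.2, 24.0 and 28.2 FPKM with ATG. The highest saline lung of each strain overlapped the ATG lungs. The log2 difference was 0.49 ± 0.070 (95% interval 0.34 to 0.63, limma adjusted p = 0.00148). It was 0.60 in C3H (limma adjusted p = 0.00359) and 0.37 in C57B, which did not pass (limma adjusted p = 0.0698). The strains did not differ past the threshold (0.23, 95% interval -0.07 to 0.52, limma adjusted p = 0.492).

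Slc11a1 in hyperoxia stood at 4.91, 9.47 and 31.0 FPKM with saline and at 19.9, 24.6 and 27.8 FPKM with ATG in C3H, so that 1 saline lung, the C3HF lung with the highest neutrophil sum, lay above all 6 ATG lungs. In C57B it was 5.23, 12.3 and 25.7 FPKM with saline and 9.55, 12.3 and 20.9 FPKM with ATG. The log2 difference over both strains was 0.67 ± 0.19 (limma adjusted p = 0.0463), which lost the threshold in 19 of 24 fits that each left out 1 lung. In C3H alone it was 1.21 ± 0.27 (limma adjusted p = 0.0191), lost in 5 of 24 such fits. Those that left out a C57B lung could change this call but not the log2 difference. In C57B it was 0.13 with a 95% interval of -0.44 to 0.69. The strains did not differ past the threshold (1.08, limma adjusted p = 0.230). In the C3H hyperoxia lungs the median neutrophil sum was 213 FPKM with saline and 773 FPKM with ATG (range 167 to 2956), and the alveolar macrophage sum ran from 381 to 970 with saline and from 172 to 556 with ATG. In the C57B hyperoxia lungs the neutrophil median was 3156 FPKM with saline and 403 FPKM with ATG, while the median of Slc11a1 was 12.3 FPKM with both. The alveolar macrophage sum of C57B ran from 827 to 1916 with saline and from 778 to 1792 with ATG. The part of these cells in the level of Slc11a1 was not tested.

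**Figure D4:**
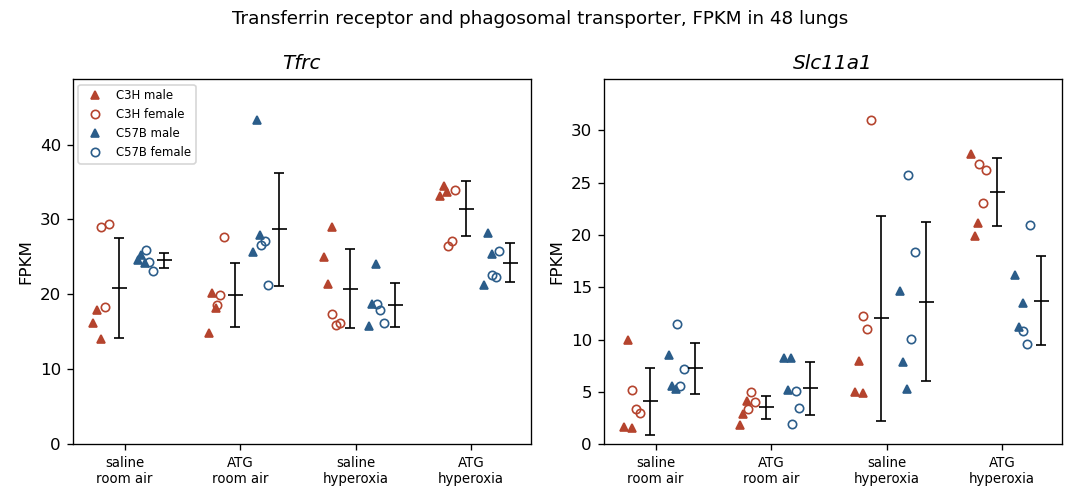
Levels of Tfrc and Slc11a1 (FPKM, vertical axis) in each of the 48 lungs, by injection and air (horizontal axis), with colour for strain, filled triangles for males and open circles for females. Black dashes and bars are the mean ± SD of 6 lungs. In C3H hyperoxia lungs Tfrc has a median of 19.4 FPKM with saline and 33.4 with ATG, and Slc11a1 of 9.47 and 24.6.

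In C3H alone these 2 members passed for ATG in hyperoxia, against 2.65% of all genes tested. In C57B alone Ftl1 was the only member to pass, against 0.864% of all genes. It stood at 3212, 3570 and 3722 FPKM with saline and 3992, 4477 and 4649 FPKM with ATG, without overlap. The log2 difference was 0.31 ± 0.073 (limma adjusted p = 0.0488), and it lost the threshold in 21 of 24 fits that each left out 1 lung. Fits that left out a C3H lung could change this call but not the log2 difference. In C3H the difference of Ftl1 was -0.01 (95% interval -0.16 to 0.14). The test of the strain difference of ATG in hyperoxia gave 0 members in limma, against 0.416% of all genes. At an unadjusted p under 0.05 it gave 2 members and 2110 of 15860 genes. The test of the difference of ATG between the airs gave 0 members in limma, against 2.77% of all genes. It gave 3 members and 3190 of 16994 genes at an unadjusted p under 0.05. Nearest to the threshold for the difference between the airs were Tfrc (0.41, limma adjusted p = 0.0554) and Slc11a1 (0.89, limma adjusted p = 0.0851). Without C3HM mice 1 and 3 the value of Slc11a1 was 1.24. Those mice, left out after seeing the data, held the lowest levels of Slc11a1 among the saline room air lungs. That fit therefore cannot decide whether the effect of ATG on Slc11a1 differed between the airs.

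Other genes of iron and haem were taken from 7 lists with 62 genes, of which 54 were tested for hyperoxia. Of these 24 rose and 17 fell, 75.9% against 60.1% of all genes, with a median log2 difference of 0.16. Of 9 tested genes for iron reduction and uptake 6 rose and 3 fell. Slc39a14, an importer of iron not bound to transferrin, went from 1.43 to 5.46 FPKM over the room air lungs to 9.81 to 55.5 FPKM in hyperoxia (log2 difference 2.70, limma adjusted p = 4.82e-12). The metalloreductase genes Steap1 and Steap3 changed by 1.76 and -1.25. All 4 tested genes of iron chaperones and export ferroxidases rose, with Cp, the ferroxidase ceruloplasmin, at 0.41, Fbxl5, which directs the breakdown of IRP2, at 0.34 and the chaperone Pcbp1 at 0.23.

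Of 9 genes of haem breakdown and transport 5 rose and 1 fell. Hmox1, the inducible haem oxygenase that frees iron from haem, went from 22.5 to 31.2 FPKM over the room air lungs to 44.8 to 434 FPKM in hyperoxia (log2 difference 2.14, limma adjusted p = 2.04e-09). Blvrb, a biliverdin reductase, rose by 0.83 and Slc46a1, a transporter of haem and folate, changed by -0.67. Of 5 genes of iron and haem scavenging proteins 3 rose and 1 fell, with Lcn2, which binds bacterial iron carriers and is also a neutrophil gene, at 2.38, the haemoglobin receptor of macrophages Cd163 at 1.35 and haemopexin, Hpx, at 0.81. Of 8 tested genes of haem synthesis 1 rose and 3 fell, with Cpox at 1.04, Uros at -0.75 and Fech at -0.56.

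In the hepcidin pathway, which controls ferroportin protein, 2 of 8 tested genes rose and 5 fell. Hamp, the gene of hepcidin itself, changed by -2.29 (limma adjusted p = 0.000858) from a range of 0 to 90.8 FPKM in room air to 0 to 2.39 FPKM in hyperoxia, Bmp6 by -1.38 and Hfe2 by -1.15. Heart muscle also expresses Hamp, and the summed FPKM of 6 cardiac markers went from 24.1 to 1218 over the room air lungs to 13.8 to 96.4 in hyperoxia. The part of heart tissue in these falls was not tested. Of 11 tested genes of mitochondrial iron and iron-sulfur clusters 3 rose and 4 fell, with Hscb at -0.65 and Isca2 at 0.50.

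The response to hyperoxia differed between the strains for 5 of these 54 genes, 9.26% against 11.5% of all genes. Bmp6, a ligand that raises hepcidin, differed by 0.97 (C3H minus C57B), Hmox1 by -1.42 and Cd163 by -0.86, beside Hp, haptoglobin, at 1.60 and Hfe at 0.90, both named because few passed. Strain in room air gave 6 of 54, 5 higher in C3H and 1 lower, 11.1% against 11.8% of all genes. ATG in hyperoxia gave 5 of 52, all higher, 9.62% against 5.47%.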

How the data were processed

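Lung RNA of 48 mice was prepared by polyA selection and sequenced. Per the labels and the methods, reads were aligned by the authors to the mm10 genome (GSNAP, SAMtools), Cufflinks gave FPKM, and the deposited table has 1 FPKM value for each gene in each mouse. Reads that match several genes may have been divided between them by the program. The sources differ on the library kit and the sequencer.

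The members and the gene lists were chosen with earlier results of these data known. Groups were taken from the labels. Linear models (limma 3.58.1, R 4.3.3, eBayes with trend) were run on log2(FPKM + 1). A gene was tested where 3 or more of the mice in the fit reached an FPKM of 1. P-values were adjusted over all genes tested (Benjamini-Hochberg, threshold 0.05). Values are on the log2(FPKM + 1) scale, which understates changes of low genes. Each mouse is 1 animal, and depth in reads is unknown, so precision comes from the spread between mice. Akap5 was left out for failed estimates. The fit was tested on simulated data.

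All 10 members are named, and from each list of iron and haem genes up to 3 by the largest log2 change among those past the threshold in hyperoxia. A result that this rule would name is not reported here. The genes most like each member were the 3 with the highest Pearson r over 16 group means. Alternatives were a pseudocount of 0.1, no filter, median ratio scaling, quantile normalization, eBayes without trend, all 48 mice in 1 fit, and leaving out each mouse. Added after seeing the data were the fits without C3HM mice 1 and 3, within strains, and with FPKM summed with related genes.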

Additional observations from a re-analysis of the deposited data

Results flagged for a closer look

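The highest or lowest lung was far from the others in 8 of 80 groups of 6 lungs (10 members, 8 groups), by the gap to the nearest lung over the whole range, where chance gives about 1 in 20. For Fth1 these were the lowest C3H saline room air lung (ratio 0.677, C3HM mouse 1 at 2362 FPKM) and the highest C57B ATG hyperoxia lung (0.638, mouse 48 at 9130 FPKM). For Tfrc they were the highest C57B ATG room air lung (0.697, mouse 17 at 43.3 FPKM) and the highest C57B saline hyperoxia lung (0.640, mouse 21 at 24.0 FPKM). Slc40a1 in C3H saline room air was highest in C3HM mouse 2 (0.833, 7.04 FPKM), and Trf in the same group was highest in mouse 27 (0.637, 363 FPKM). Slc11a1 in C3H saline hyperoxia was highest in mouse 33 (0.718, 31.0 FPKM), the lung with the highest neutrophil sum. Ireb2 in C3H ATG room air was highest in mouse 5 (0.720, 15.9 FPKM).

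Effects of hyperoxia that differed between the strains by the interaction test were those of Slc40a1 (1.15), Trf (0.98) and Fth1 (-0.60), C3H minus C57B on the log2 scale.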

How the results depend on the processing

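No paired analysis was possible because each mouse has a number of its own and groups share none. The 58 called results of members, single strains and sexes included, had 1820 alternative values, all in the same direction, of which 1667 kept the threshold and 153 lost it; where the cause of a loss is not in the alternative itself, the cause was not tested. The rise of 6 members and the fall of Trf in hyperoxia were kept in all of them, with 7 to 8 members called when 1 mouse was left out. Tfrc and Ireb2, which did not pass there, passed under 3 and 4 of 7 other settings.

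Counts of members called changed as follows. For strain in room air 1 became 0 without the filter, 2 with all 48 mice fitted and 2 without C3HM mice 1 and 3. For sex 0 became 1 with median ratio scaling, 1 with quantile normalization and 2 with all 48 mice, and for the sex difference in hyperoxia 0 became 2 with all 48 mice. For ATG in hyperoxia 2 became 1 without the filter, with median ratio scaling, with quantile normalization, without trend and with all 48 mice. For the difference of ATG between the airs 0 became 1 without C3HM mice 1 and 3. Leaving out 1 mouse gave 1 to 4 for strain in room air, 0 to 3 for sex, 0 to 5 for strain by sex, 0 to 4 for the sex difference, 1 to 2 for ATG in hyperoxia and 0 to 1 for ATG between the airs.

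Counts over all genes changed from 1832 to 2982 (strain) and from 1880 to 2994 (strain difference in hyperoxia) with all 48 mice. For sex 104 became 40 without the filter, 1915 with all 48 mice and 30 without C3HM mice 1 and 3. For strain by sex 0 became 5 with a pseudocount of 0.1, 2 without the filter, 2 without trend, 748 with all 48 mice and 1 without mice 1 and 3. For the sex difference 6 became 2 with median ratio scaling and 306 with all 48 mice. For ATG in room air 3 became 5 without the filter and 5 without mice 1 and 3, and for ATG between the airs 470 became 313 without the filter. Leaving out 1 mouse gave 1306 to 4021 for strain, 20 to 3640 for sex, 0 to 2741 for strain by sex, 1400 to 3242 for the strain difference, 2 to 1270 for the sex difference, 3 to 32 for ATG in room air, 443 to 1096 for ATG in hyperoxia and 243 to 1093 for ATG between the airs. The share of higher calls under median ratio scaling and quantile normalization was 48.0% and 51.2% for strain (main value 33.2%), 49.3% and 55.2% for sex (35.6%), 46.5% and 49.1% for the strain difference (75.6%), 41.0% and 45.6% for ATG in hyperoxia (71.1%), and 32.8% and 34.7% for ATG between the airs (56.4%).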

Other observations

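The genes whose levels were most like those of a member over the 16 group means, among 16994 genes, are given as a description, since the means share strains and airs. For Ftl1 these were Necap2 (r = 0.983), Gnb1 (0.982) and Lgals3 (0.976), the last a galectin of macrophages and epithelium. For Fth1 they were Zwint, Adipor1 and Mtmr2 (0.977 to 0.978). Trf was most like Nbl1 (0.975), Acoxl (0.964) and Pcp4l1 (0.961), and Aco1 most like Ddb1 (0.972). Slc40a1 was most like Cyba (0.888), a subunit of the NADPH oxidase of phagocytes, and Slc11a1 most like Adora2b (0.950), an adenosine receptor. Tfrc had no gene above 0.891 (Gm8203). Among the members, Ftl1 and Fth1 had r = 0.930, and Fth1 and Trf had r = -0.841.

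The effect of ATG in hyperoxia differed between the strains for 4 of 52 iron and haem genes in limma, against 0.416% of all genes tested, each with a higher value in C3H. Slc39a14 differed by 1.49 on the log2 scale (limma adjusted p = 0.0142). Its saline hyperoxia lungs ran from 9.81 to 43.1 FPKM in C3H and from 28.3 to 55.5 FPKM in C57B, and its ATG hyperoxia lungs from 28.6 to 40.3 FPKM and from 16.4 to 42.1 FPKM. Lcn2 differed by 2.70 (limma adjusted p = 0.0466), Steap4 by 2.66 (0.0211) and Slc39a8 by 0.91 (0.0114), Steap4 and Slc39a8 being named because few passed. The neutrophil sum had a median of 773 FPKM in C3H and 403 FPKM in C57B with ATG, against 213 and 3156 FPKM with saline, and its part in these differences was not tested.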
